A study of Aspergillus nidulans with 24 samples.

Results

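Mycelium of the mannanase-producing strain 1542 of the filamentous fungus Aspergillus nidulans was compared with mycelium of the strain from which it was built, after 8 h on maltose. The comparison took 6 of the 24 RNA-seq libraries of the series, and 9201 of the 10631 genes of the table, those with an FPKM of at least 1 in 3 or more of the 24 libraries. Every difference below is the level in 1542 minus that in the parental strain.

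Strain 1542 is a recombinant strain that makes a heterologous thermophilic mannanase of family GH5, from a promoter that maltose activates. The parental strain is A773, which the labels also call wild type although it carries pyrG89, wA3 and pyroA4. The genotype of 1542 at these 3 loci, the name of the promoter, the place of insertion and the number of transformants studied are not stated in the labels. Both groups were held at 37 °C in minimal medium with 2% maltose and HEPES for promoter activation, and each had 3 libraries described as biological triplicates, without saying what was separate between them. Pyridoxine, uracil and uridine were supplied where a strain needed them, without a list of which strain had them. The series also holds 2 other recombinant strains, AbfA, which makes an alpha-arabinofuranosidase, and BglC, which makes a beta-glucosidase, and a sampling at 2 h of all 4 strains.

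Aspergillus nidulans digests maltose and starch with secreted and intracellular alpha-glucosidases, whose genes are induced by maltose. Secreted proteins such as the mannanase fold in the endoplasmic reticulum, where chaperones are raised when folding falls behind. A culture that has little sugar left turns to ethanol, acetate and amino acids as carbon sources through dedicated catabolic genes, and mycelium that is starved or exposed to air can begin to form conidiophores, the stalks that carry the asexual spores.

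The 6 libraries held 14268483 to 24286301 reads over genes, recovered from the steps of the FPKM values. On log2(FPKM + 1) over the genes tested, libraries of 1542 correlated with each other at 0.984 to 0.992, libraries of the parental strain at 0.984 to 0.991, and libraries of different strains at 0.952 to 0.972. Parental replicate 2 stood apart for a small set of genes. There, 27 genes had an FPKM of at least 5 and lay at least 4-fold above both other parental libraries on FPKM + 1, against 0 genes in each of parental replicates 1 and 3, and 0, 4 and 1 genes in replicates 1, 2 and 3 of 1542. Of those 27 genes, 17 were also among the genes called higher in 1542, against 5.42% of all genes tested. The results on those described below are given with and without that library.

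The introduced mannanase gene was expressed in every library of its strain. It had 943, 1070 and 803 FPKM in 1542, against 0.179, 0.0608 and 0 FPKM in the parental strain, where 7, 3 and 0 reads fell on it. The gene thus marked the 3 libraries labelled 1542, and it took 0.192%, 0.217% and 0.163% of the reads of the 1542 libraries, at rank 226, 203 and 264 of all genes. For comparison, the introduced gene of AbfA took 0.75% to 1.19% of the reads in its own strain at 8 h and that of BglC 1.91% to 2.23%. pyrG, which encodes orotidine 5′-phosphate decarboxylase of uridine synthesis and carries the pyrG89 mutation in A773, had 154, 161 and 159 FPKM in 1542, against 61.6, 70.6 and 75.4 FPKM in the parental strain. The groups did not overlap, with a difference of 1.19 ± 0.23 on the log2(FPKM + 1) scale (SE; limma, adjusted p = 0.0014). AN0565, entered in the pyrimidine list, was lower (−0.89 ± 0.18, adjusted p = 0.0022). The other members of that list, ura6, ura7 and pyroA, of which pyroA serves pyridoxine synthesis, were not called (−0.33, −0.22 and −0.18).

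Of the 9201 genes, 1670 (18.2%) differed between the strains at a Benjamini-Hochberg adjusted p under 0.05 in limma, with 499 (5.42%) higher and 1171 (12.7%) lower in 1542. At least 2-fold differences were called for 476 genes (5.17%), 198 higher (2.15%) and 278 lower (3.02%), and at least 8-fold differences for 22 higher and 16 lower genes. Of the calls, 29.9% were higher with FPKM as deposited and 48.5% after scaling the libraries by the median of ratios (752 higher of 1549), which moved the median difference of all genes to 0 from −0.09. That scaling centres the median and so nearly fixes an even split of positive and negative differences over all genes. It does not fix the split of calls, but that split moved with the choice of scaling. Of the calls, 1295 (77.5%) were also made after the other scaling. As deposited, 3589 genes (39.0%) had a positive difference and 5612 (61.0%) a negative one. The libraries of the 2 strains did not overlap for 3560 genes (38.7% of those tested), and for 1624 of the 1670 called genes (97.2%). Non-overlap was also required of the genes named by size, so it is no further evidence for them. The number of calls was 1083 without 1542 replicate 1 and 957 without 1542 replicate 3. It was 987 without parental replicate 1 and 988 without parental replicate 3, while 1783 genes were called without parental replicate 2. Median differences were alike across the genome, with a median of −0.11 to −0.08 on each of the 8 chromosomes.

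**Figure D1:**
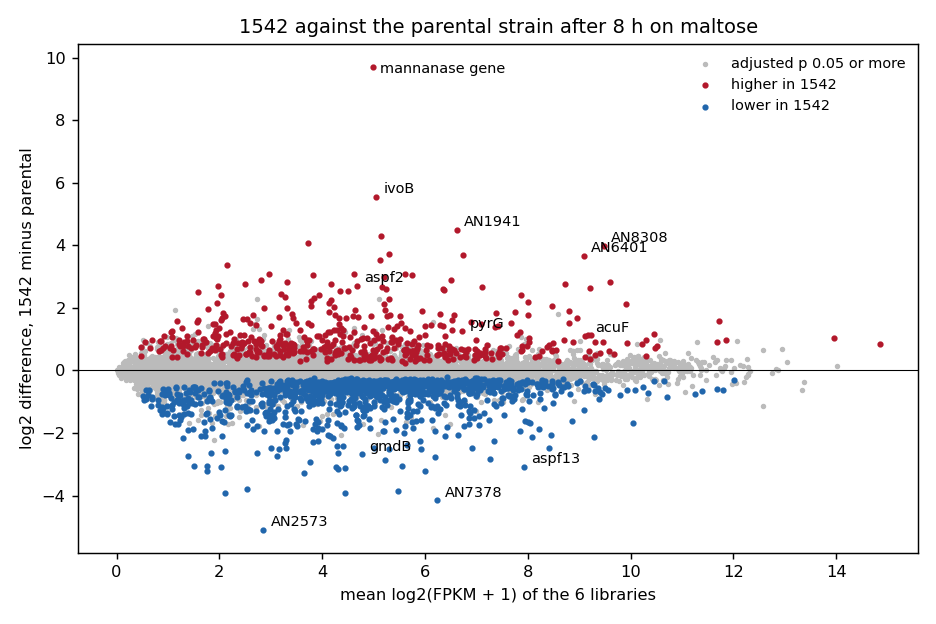
Log2 difference of each of the 9201 genes (1542 minus parental, 8 h) against its mean log2(FPKM + 1) over the 6 libraries. The plotted differences leave out parental replicate 3. Genes called in the fit of all libraries are red where the plotted difference is positive and blue where it is negative, others grey. The mannanase gene is plotted at 9.7 and ivoB at 5.55. In the fit of all libraries the mannanase gene was at 9.76, and the host genes reached 5.65 (ivoB) and −4.89 (AN2573). Most calls in that fit were within 2-fold of no difference.

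The largest increase of a host gene was that of ivoB, a phenol oxidase that makes the brown pigment of the conidiophore. It had 217, 169 and 350 FPKM in 1542, against 2.87, 5.56 and 3.09 FPKM in the parental strain, a difference of 5.65 ± 0.42 (adjusted p = 2.1e-08). Every 1542 library was far above every parental one, by 63.9-fold in the means. The other strains also expressed it, as at 8 h AbfA averaged 307 FPKM and BglC 19.7 FPKM, and at 2 h 1542 averaged 306 FPKM and the parental strain 743 FPKM. The level in 1542 at 8 h was thus near its level at 2 h, and the parental strain had the high level at 2 h and the low one at 8 h.

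Several of the other large increases shared the fall in the parental strain between 2 h and 8 h, while their courses in 1542 differed. AN1941 had 386, 369 and 682 FPKM in 1542, against 21.5, 17.3 and 21.0 FPKM in the parental strain (difference 4.47 ± 0.25, adjusted p = 7.4e-10). AN6401, an abundant transcript, had 1790, 1730 and 2900 FPKM in 1542, against 145, 184 and 107 FPKM in the parental strain (3.86 ± 0.34, adjusted p = 1.7e-07). No library of either strain overlapped for these genes, which the naming rule required. Replicate 3 was the highest of the 1542 libraries for both, as it was for ivoB. AN1604 averaged 51.1 ± 6.5 FPKM in 1542 and 2.46 ± 0.698 FPKM in the parental strain (SD, n = 3 each). AN0500 averaged 128 ± 16.9 FPKM in 1542 and 12.1 ± 5.83 FPKM in the parental strain. AN4394 averaged 120 ± 19.7 FPKM in 1542 and 9.22 ± 1.81 FPKM in the parental strain. The files and the reference table give these 5 IDs no name. At 2 h their means were 420, 1590, 24.1, 84.1 and 257 FPKM in 1542, against 1040, 5340, 46.2, 193 and 218 FPKM in the parental strain, in the order AN1941, AN6401, AN1604, AN0500 and AN4394. Parental levels were thus many-fold higher at 2 h than at 8 h for all 5. They were chosen by a difference that includes the parental level at 8 h, so this course only describes them. Of the 12 largest increases, the mannanase gene among them, 6 had a higher parental mean at 2 h than at 8 h and 6 a lower one.

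Among genes with a symbol in the reference table, ags2, an alpha-1,3-glucan synthase of the cell wall, followed the course of ivoB. It had 19.3, 18.3 and 29.6 FPKM in 1542, against 1.76, 1.57 and 1.7 FPKM in the parental strain (3.10 ± 0.21, adjusted p = 9.5e-09), while at 2 h it averaged 21.7 FPKM in 1542 and 48.1 FPKM in the parental strain. sclB, a zinc-cluster transcription factor that promotes conidiation, had 40.0, 38.0 and 38.4 FPKM in 1542, against 6.76, 8.11 and 6.83 FPKM in the parental strain (2.28 ± 0.19, adjusted p = 9.6e-08). The libraries of the 2 strains did not overlap for ags2 or sclB, which the naming rule required. laeA, a regulator of secondary metabolism and development, had 60.3, 72.8 and 47.6 FPKM in 1542, against 35.1, 38.5 and 44.9 FPKM in the parental strain (0.58 ± 0.14, adjusted p = 0.0071). Its call ended when only the libraries compared were fitted (adjusted p = 0.052). It was the only one of the 12 upstream regulators of development tested that was called, against 5.42% higher and 12.7% lower among all genes.

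Of the 13 genes of the conidiophore tested, 3 were called higher (ivoB, stuA and tmpA) and 0 lower, against 5.42% and 12.7% of all genes, and 1 higher call was left without 1542 replicate 3, parental replicate 1 or parental replicate 3. The 13 genes had a median difference of 0.21 against −0.09 for all genes. stuA, a regulator of conidiophore shape, differed by 0.64 ± 0.17 (adjusted p = 0.014). tmpA, a membrane flavoprotein that acts early in conidiation, had 33.7, 51.7 and 28.2 FPKM in 1542, against 7.66, 13.3 and 6.25 FPKM in the parental strain (1.97 ± 0.62, adjusted p = 0.033). The libraries did not overlap, but the calls rested on single libraries: stuA lost its call without 1542 replicate 3 or parental replicates 1 or 3 (adjusted p = 0.055 to 0.082), and tmpA without any library but parental replicate 2 (0.059 to 0.12). brlA, the switch that starts conidiation, had 54.0, 58.2 and 47.6 FPKM in 1542, against 23.8, 19.1 and 26.1 FPKM in the parental strain (adjusted p = 0.069). The later regulators abaA and wetA and the spore pigment gene yA were low but not at 0 in all 6 libraries, between 1.29 and 11.7 FPKM. Their differences were −0.49, −0.65 and 0.04, with adjusted p-values of 0.13, 0.16 and 0.95. Of the 13 genes, 9 had a positive difference, against 39.0% of all genes. Those with a negative one were abaA, wetA, medA (−0.34) and dewA (−0.72), none of them called. The summed FPKM of the 13 genes was 1210 to 1480 in 1542 and 757 to 806 in the parental strain, and its part in the other results was not tested; more conidiophore cells and more RNA per cell cannot be told apart in bulk mycelium. None of the 4 genes of sexual development was called, nor any of the 7 hydrolase and protease genes of autolysis. Of all genes, 5.42% were called higher and 12.7% lower.

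**Figure D2:**
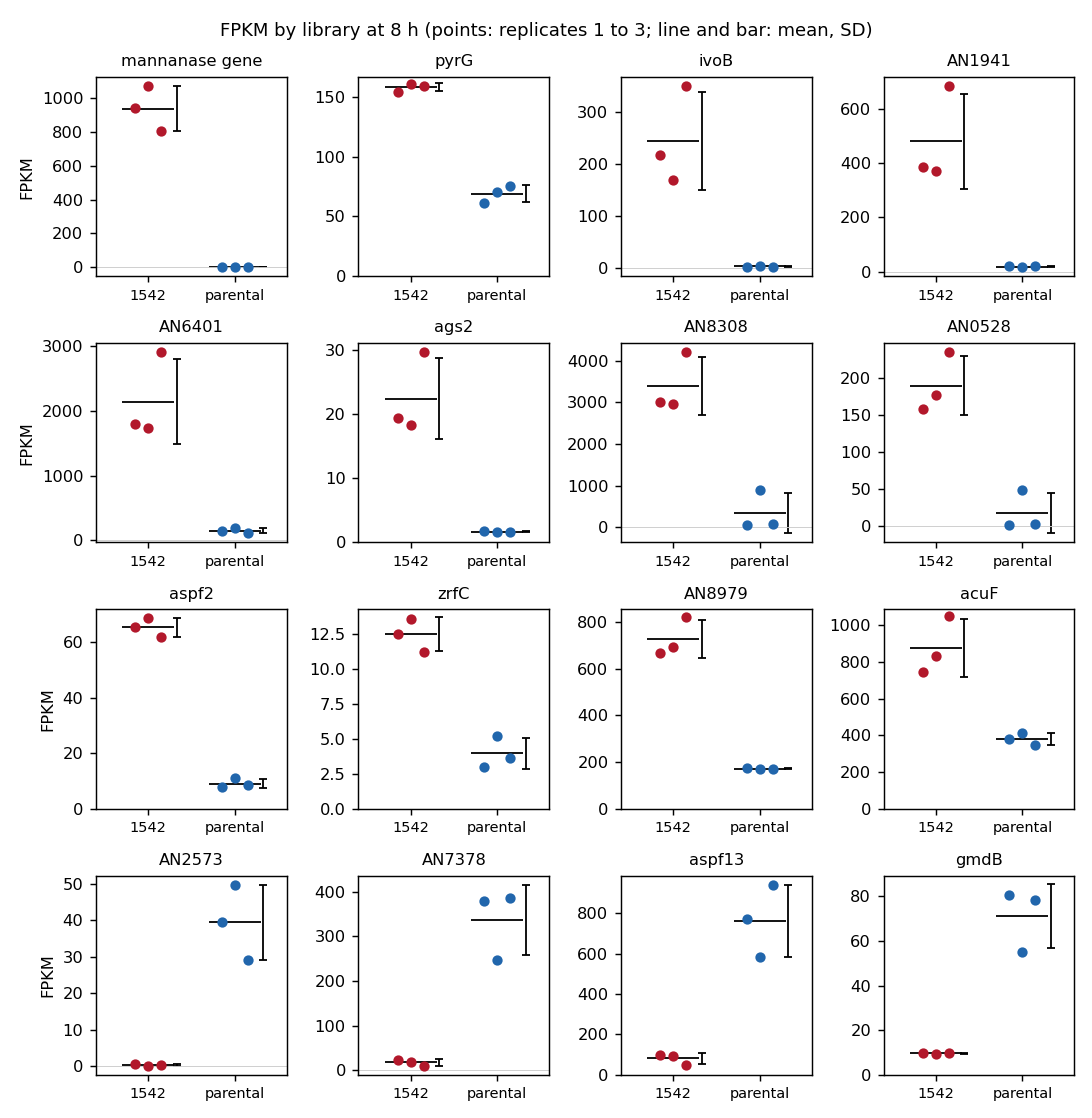
FPKM of 16 genes in the 3 libraries of 1542 (red) and the 3 of the parental strain (blue) at 8 h, each panel on its own linear axis, with the group mean (line) and SD (bar). The libraries of the 2 strains do not overlap in any panel, which the naming rule required of the genes chosen by size. Parental replicate 2 lies above the other parental libraries for AN8308 (908 FPKM) and AN0528 (48.1 FPKM).

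A second set of large increases had high levels in 1542 at both times. AN8308 was among the most abundant of them, with 3010, 2960 and 4200 FPKM in 1542, against 48.6, 908 and 75.5 FPKM in the parental strain (4.47 ± 0.76, adjusted p = 0.0004). AN8366 had 405, 464 and 457 FPKM in 1542, against 5.82, 169 and 13.5 FPKM in the parental strain (4.11 ± 0.80, adjusted p = 0.0014). Both lie on chromosome V and were high in every library of 1542, and parental replicate 2 held an intermediate level that the other parental libraries did not have. Without that library the differences were 5.76 ± 0.56 for AN8308 (adjusted p = 1.2e-06) and 5.47 ± 0.59 for AN8366 (adjusted p = 4.5e-06). At 2 h, where none of these libraries enters, AN8308 averaged 1110 FPKM in 1542 and 5.33 FPKM in the parental strain, and AN8366 averaged 190 FPKM in 1542 and 1.81 FPKM in the parental strain.

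AN0528 and AN0531 on chromosome VIII followed the same pattern with AN0529 beside them. AN0528 had 158, 176 and 234 FPKM in 1542, against 0.849, 48.1 and 2.14 FPKM in the parental strain (4.83 ± 0.75, adjusted p = 0.00015; 6.28 ± 0.41 without parental replicate 2). AN0531 had 121, 165 and 223 FPKM in 1542, against 5.95, 52.4 and 6.83 FPKM in the parental strain (3.54 ± 0.57, adjusted p = 0.00024; 4.49 ± 0.43 without parental replicate 2). Replicate 2 was again the highest parental library for both. AN0529 differed by 2.64 ± 0.46 (adjusted p = 0.00047; 3.48 ± 0.30 without parental replicate 2) and AN0532 by −0.08 ± 0.15 (adjusted p = 0.74), so the raised genes ended on that side. On the other side AN0527 to AN0522 were not tested, nor was AN0530 between AN0529 and AN0531.

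The longest stretch of raised neighbours lay on chromosome II. Between AN7893 and AN7903, 9 of the 12 genes tested were called higher, and AN7897, AN11584, AN7898 and AN7899 were 4 in an unbroken row. AN7898 had 76.8, 84.7 and 85.1 FPKM in 1542, against 2.16, 30.0 and 2.86 FPKM in the parental strain (3.52 ± 0.62, adjusted p = 0.00056; 4.57 ± 0.46 without parental replicate 2). AN11584, the most abundant of the 4, had 541, 881 and 544 FPKM in 1542, against 46.8, 296 and 41.2 FPKM in the parental strain (2.92 ± 0.94, adjusted p = 0.037; 3.83 ± 0.98 without parental replicate 2). Every gene of the stretch was lower in parental replicate 2 than in each 1542 library and higher there than in the other parental libraries. Without that library the differences of AN7893, AN7895, AN7897 and AN7899 were 4.11, 4.11, 4.01 and 3.93, against 3.20, 3.20, 3.05 and 3.03 with it. Those of AN7901, AN7902 and AN7903 were 2.32, 3.30 and 2.85, against 1.67, 2.43 and 2.11 with it. AN7894, AN7896 and AN7900 missed the threshold (adjusted p = 0.099, 0.4 and 0.085), and without parental replicate 2 AN7894 and AN7900 passed it (0.031 and 0.021) while AN7896 did not (0.35). AN11584 lost its call without any library other than parental replicate 2 (adjusted p = 0.073 to 0.15), and AN7897 without parental replicate 1 or 3 (0.074 and 0.07). AN7892 on one side and AN7904 on the other were not called, at adjusted p = 0.059 and 0.96. At 2 h the differences of the 9 called genes were 2.37 to 6.10, each called.

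**Figure D3:**
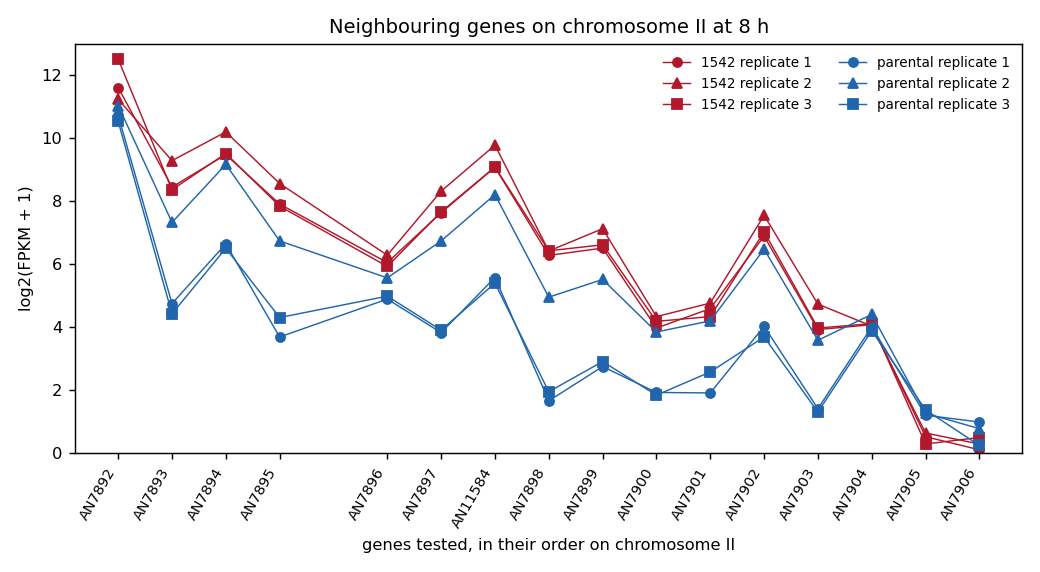
Log2(FPKM + 1) of the tested genes from AN7892 to AN7906, in their order on chromosome II, with a line for each library of 1542 (red) and of the parental strain (blue). From AN7893 to AN7903 the 1542 lines lie above the parental ones, parental replicate 2 (blue triangles) runs between them, and all 6 lines meet at AN7904.

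The levels of these genes in 1542 also differed from those in the other recombinant strains. Those differences use no parental library, but all 24 libraries entered the estimate of spread behind the adjusted p-values. AN8308, AN0528, AN8366, AN0531 and AN7898 were picked as the largest host increases called against both strains. Of 9201 genes, 627 (6.81%) differed between 1542 and AbfA at 8 h (188 higher, 2.04%, and 439 lower, 4.77%), and 1352 (14.7%) between 1542 and BglC (715 higher, 7.77%, and 637 lower, 6.92%). After median-of-ratios scaling the calls were 290 higher and 381 lower against AbfA, and 646 higher and 800 lower against BglC, so the larger direction against BglC turned with the scaling. Leaving out 1542 replicate 1 or 2 left 240 or 260 calls against AbfA, and leaving out replicate 2 or 3 of AbfA left 269 or 277. Against BglC, 885 calls were left without BglC replicate 2. AN8308 averaged 3390 FPKM in 1542, against 248 FPKM in AbfA and 51.7 FPKM in BglC (3.80, adjusted p = 0.0062, and 6.15, adjusted p = 2.2e-05). AN0528 averaged 189 FPKM in 1542, against 11.7 FPKM in AbfA and 1.17 FPKM in BglC, and AN7898 averaged 82.2 FPKM in 1542, against 6.67 FPKM in AbfA and 0.638 FPKM in BglC. The differences of AN8366, AN0531 and AN7898 from AbfA were 3.24, 3.28 and 3.48, and those from BglC 5.64, 5.65 and 5.67. The call of AN8366 against AbfA ended without 1542 replicate 1 or 2 or AbfA replicate 2 or 3 (adjusted p = 0.061 to 0.078). AN1941, AN6401, AN1604, AN0500 and AN4394 did not pass the threshold against AbfA (adjusted p = 0.31 to 0.97) and were higher in 1542 than in BglC (adjusted p = 3.7e-07 to 0.00028). AN8308 to AN7898 were picked for passing against both strains. The contrast between the 2 sets thus follows in part from that choice and is no separate result. The comparisons with the parental strain and with AbfA or BglC share the 1542 libraries, so they do not stand as separate evidence.

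Of the genes named for zinc uptake, aspf2 and zrfC were higher in 1542. In Aspergillus fumigatus this pair is transcribed from neighbouring positions and serves zinc uptake in alkaline, zinc-poor conditions, with zrfC as the membrane transporter. aspf2 had 65.5, 68.7 and 61.8 FPKM in 1542, against 7.74, 11 and 8.35 FPKM in the parental strain (2.74 ± 0.23, adjusted p = 1.1e-07). zrfC had 12.5, 13.6 and 11.2 FPKM in 1542, against 2.99, 5.2 and 3.66 FPKM in the parental strain (1.46 ± 0.20, adjusted p = 3.6e-05). The libraries of a strain lay close together for both genes. AbfA and BglC averaged 18.7 and 13.3 FPKM for aspf2 and 2.54 and 3.18 FPKM for zrfC at 8 h. The other transporters of the zinc and copper list, zrfA, zrfB and zrfD, were not called, with differences of −0.26, 0.13 and 0.08. Of the 10 largest increases with a symbol, those not described elsewhere were fmaG (1.45 ± 0.24, adjusted p = 0.00024) and afeA (1.46 ± 0.49, adjusted p = 0.044). afeA lies beside tmpA on chromosome VIII and lost its call without any library other than parental replicate 2 (0.086 to 0.15).

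Genes of ethanol and acetate use were among those higher in 1542. The IDs of the ethanol list, which carry no symbol in the reference table and were entered from textbook knowledge, gave 4 of 7 called higher and 0 lower, where 5.42% of all genes were called higher. The median was 1.02, and 7 of 7 differences were positive, as were 39.0% of those of all genes. AN8979 had 668, 694 and 821 FPKM in 1542, against 176, 170 and 170 FPKM in the parental strain (2.07 ± 0.44, adjusted p = 0.0026). AN0554 had 883, 789 and 1110 FPKM in 1542, against 285, 292 and 239 FPKM in the parental strain (1.76 ± 0.28, adjusted p = 0.00018). No libraries overlapped for either, and AN8981 (1.85 ± 0.48) and AN8978 (0.97 ± 0.26) were the other genes called. AN8978 lost its call without 1542 replicate 3 (adjusted p = 0.079) or parental replicate 1 (0.051). At 2 h the difference of AN8979 was larger, 4.38, with 1160 FPKM in 1542 and 58.6 FPKM in the parental strain.

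In the list of acetate use and gluconeogenesis, 3 of 8 genes were called higher and 0 lower, against 5.42% and 12.7% of all genes, with a median of 0.46. acuF, the phosphoenolpyruvate carboxykinase that opens gluconeogenesis, had 743, 832 and 1050 FPKM in 1542, against 381, 411 and 347 FPKM in the parental strain (1.19 ± 0.20, adjusted p = 0.00035). AN5626 (1.03 ± 0.20, adjusted p = 0.0014) and AN6653 (1.19 ± 0.25, adjusted p = 0.0029) were the others. The libraries of the 2 strains did not overlap for these 3 genes, whereas facB, the activator of acetate genes, and acuM, a regulator of gluconeogenesis, differed by 0.11 and −0.09 and were not called. acuF lay in a row of 4 raised genes on chromosome VII with AN1917, AN1919 and AN1920, of which AN1919 lost its call without any of 5 libraries (1542 replicate 1 or 3, or any parental library; adjusted p = 0.071 to 0.19) and AN1920 without 1542 replicate 3 (0.064) or parental replicate 3 (0.051).

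All 9 genes of starch and maltose use had a positive difference, against 39.0% of all genes, with a median of 0.51. Of the 9, 3 were called higher, against 5.42% of all genes. Their summed level was 969 to 1200 FPKM in 1542 and 512 to 619 FPKM in the parental strain. agdC, an alpha-glucosidase, had 47.3, 39.2 and 49.7 FPKM in 1542, against 17.2, 15.9 and 15.9 FPKM in the parental strain (1.42 ± 0.20, adjusted p = 5.5e-05). AN8953 had 761, 923 and 683 FPKM in 1542, against 336, 402 and 435 FPKM in the parental strain (1.01 ± 0.25, adjusted p = 0.0082), and AN2017 differed by 0.51 ± 0.11 (adjusted p = 0.0029). At 2 h the order of the strains was the other way round for these 3 genes: agdC averaged 45.4 FPKM in 1542 and 128 FPKM in the parental strain, AN8953 averaged 800 FPKM in 1542 and 1680 FPKM in the parental strain, and AN2017 averaged 110 FPKM in 1542 and 151 FPKM in the parental strain, all called lower in 1542. None of the 10 glycolysis genes was called, nor any of the 3 genes of carbon catabolite repression, where 18.2% of all genes were called. After scaling between libraries 1 glycolysis gene was called higher, and 1 with voom on the recovered reads.

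Amino acid catabolism gave single calls. prnC, the pyrroline-5-carboxylate dehydrogenase of proline use, had 28.9, 33.4 and 29.2 FPKM in 1542, against 7.72, 17.7 and 7.9 FPKM in the parental strain (1.47 ± 0.37, adjusted p = 0.0091). Its call ended without parental replicate 1 (adjusted p = 0.053) or 3 (0.051). prnD and gatA, the proline oxidase and the GABA transaminase of the same list, had differences of 1.04 and 1.24 and were not called (adjusted p = 0.057 and 0.053). Of the other members, AN1729 and AN1730 differed by 0.08 and 0.25, and prnB, the proline transporter, by −0.47, with 2.34, 2.41 and 1.61 FPKM in 1542, against 2.79, 2.78 and 4.48 FPKM in the parental strain (adjusted p = 0.2). In phenylalanine and tyrosine breakdown, 4 of 4 differences were positive, between 0.85 and 1.09, against 39.0% of all genes. The only call was hmgA, the homogentisate dioxygenase, where 5.42% of all genes were called higher. hmgA had 59.3, 41.2 and 108 FPKM in 1542, against 26.7, 46.6 and 20.7 FPKM in the parental strain, and these overlapped. Its adjusted p of 0.047 became 0.086 to 0.25 without 1542 replicate 1 or 3 or parental replicate 1 or 3.

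The genes of folding in the endoplasmic reticulum showed little. Of 10 tested, 1 was called higher and 0 lower, against 5.42% and 12.7% of all genes, with a median of −0.02. bipA, the Hsp70 chaperone of the endoplasmic reticulum, had 271, 300 and 305 FPKM in 1542, against 275, 256 and 297 FPKM in the parental strain (0.08, adjusted p = 0.76). hacA, the transcription factor of the unfolded protein response, had 660, 568 and 378 FPKM in 1542, against 1190, 654 and 586 FPKM in the parental strain (−0.56, adjusted p = 0.15). Both overlapped between the strains. The 1 call was clxA, the lectin chaperone calnexin, with 145, 178 and 159 FPKM in 1542, against 97.0, 121 and 121 FPKM in the parental strain (0.50 ± 0.16, adjusted p = 0.032), and it ended without 1542 replicate 2 or 3 or parental replicate 1 or 3 (0.053 to 0.15). Of 7 cytosolic and mitochondrial heat shock genes, 6 had a positive difference, against 39.0% of all genes. Of the 7, 1 was called higher, against 5.42% of all genes: AN0858, at 0.94 ± 0.31 (adjusted p = 0.044). That call ended without 1542 replicate 1 or 3 or parental replicate 1 or 3 (0.053 to 0.24). The summed level of the 7 genes was 11000 to 22000 FPKM in 1542 and 7320 to 10000 FPKM in the parental strain, and 1542 replicate 3 held the highest hsp90 level, 2960 FPKM.

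**Figure D4:**
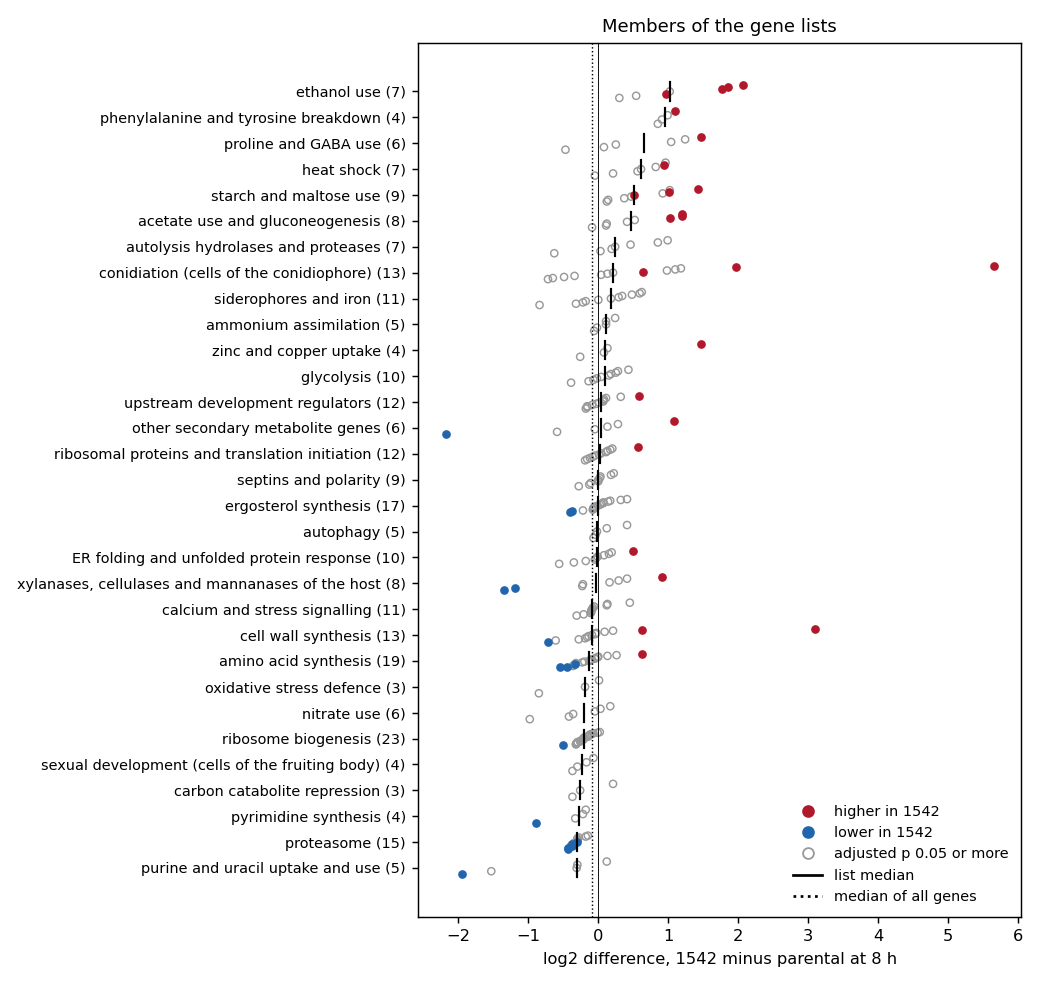
Log2 difference (1542 minus parental, 8 h) of each tested member of the 31 gene lists, with the number tested in brackets, called members filled (red higher, blue lower), the list median as a bar and the median of all genes (−0.09) dotted. The ethanol list has its median at 1.02, that of starch and maltose use at 0.51 and that of the proteasome at −0.31.

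The 12 largest decreases had parental means at 8 h of 9.21 FPKM (AN5459) to 764 FPKM (aspf13). AN2573 had 0.526, 0.171 and 0.318 FPKM in 1542, against 39.6, 49.6 and 29.0 FPKM in the parental strain (−4.89 ± 0.28, adjusted p = 7.4e-10). AN7378 had 23.9, 17.9 and 9.91 FPKM in 1542, against 380, 247 and 386 FPKM in the parental strain (−4.26 ± 0.26, adjusted p = 1.5e-09). AN1567 had 6.78, 2.62 and 4.86 FPKM in 1542, against 83.0, 79.5 and 90.7 FPKM in the parental strain (−3.96 ± 0.78, adjusted p = 0.0015). No 1542 library came near a parental one for these genes. AN3333 averaged 0.602 ± 0.658 FPKM in 1542 and 21.8 ± 7.18 FPKM in the parental strain, and AN11121 averaged 11.3 ± 1.72 FPKM in 1542 and 162 ± 26.4 FPKM in the parental strain (SD, n = 3 each). The remaining 7 of the 12 largest decreases (AN0492, AN9273, aspf13, AN11468, AN7087, AN5459 and AN6426) had differences of −3.58 to −3.15. All 12 had a lower parental mean at 2 h than at 8 h. For AN2573, for example, the means at 2 h were 0.184 FPKM in 1542 and 0.225 FPKM in the parental strain. The 12 were chosen by a difference that includes the parental level at 8 h, so this course only describes them.

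The largest decrease of a gene with a symbol was that of aspf13, named after an allergen of Aspergillus fumigatus. It had 99.3, 94.8 and 51.0 FPKM in 1542, against 770, 583 and 940 FPKM in the parental strain (−3.24 ± 0.39, adjusted p = 1.1e-05), while AbfA averaged 258 FPKM and BglC 292 FPKM. gmdB, the next, had 9.88, 9.15 and 9.61 FPKM in 1542, against 80.7, 55.0 and 78.1 FPKM in the parental strain (−2.76 ± 0.23, adjusted p = 1.1e-07). The 1542 libraries were nearly equal for it. aah1, an adenine deaminase in budding yeast, had 16.3, 16 and 21.3 FPKM in 1542, against 98.7, 49.6 and 73.5 FPKM in the parental strain (−1.95 ± 0.23, adjusted p = 8e-06). tpcA, named after a gene of trypacidin synthesis in Aspergillus fumigatus, had 0.129, 0.0474 and 0.572 FPKM in 1542, against 3.91, 12.6 and 1.58 FPKM in the parental strain (−2.18 ± 0.44, adjusted p = 0.002). The parental libraries spread widely for tpcA and did not overlap with those of 1542, as the rule for genes ranked by size required. The other call among the 6 secondary metabolite genes tested, nrps1, was higher in 1542 (1.08 ± 0.34, adjusted p = 0.034), and it ended without any library other than parental replicate 2 (0.05 to 0.13). Of all genes, 5.42% were called higher and 12.7% lower. exgO (−1.11), glfB, a transporter of UDP-galactofuranose in Aspergillus fumigatus (−1.0), aspf34 (−0.95), pmeA (−0.91), gliT, an oxidoreductase of gliotoxin synthesis in Aspergillus fumigatus (−0.87), and atrF, an ABC transporter (−0.87), were the others of the 10 largest with a symbol. pmeA lost its call without 1542 replicate 2 or 3 or parental replicate 1 or 3 (adjusted p = 0.052 to 0.17), and gliT without 1542 replicate 1 or 3 or parental replicate 2 or 3 (0.064 to 0.092).

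AN7378, AN3333, AN11121, aspf13, AN6426 and AN1813 were lower in 1542 than in both other recombinant strains as well. AN7378 averaged 17.3 FPKM in 1542, against 76.7 FPKM in AbfA and 73.8 FPKM in BglC (−2.12, adjusted p = 0.00013, and −2.11, adjusted p = 2.2e-05). AN6426 differed from AbfA by −2.20 and from BglC by −2.63, and AN1813 by −1.59 and −1.81. The adjusted p-values of AN11121 were 0.047 against AbfA and 0.029 against BglC. Its calls ended without any 1542 library, without AbfA replicate 1 or 2 and without BglC replicate 2 or 3 (0.054 to 0.25). The calls against AbfA also ended for AN3333 without 1542 replicate 1 or 3 or AbfA replicate 1 or 2 (0.13 to 0.22), and for aspf13 without 1542 replicate 3 or AbfA replicate 1 or 2 (0.057 to 0.063). With voom the calls against AbfA ended for AN1813 (0.074), AN3333 (0.088) and AN11121 (0.096). A fit on the libraries compared ended those of AN3333 (0.15) and AN11121 (0.067), and that of AN11121 also ended with no filter (0.058), a pseudocount of 0.1 (0.055) or scaling (0.063). AN2573 and AN1567 did not pass the threshold against either strain. They averaged 0.338 and 4.75 FPKM in 1542, 0.919 and 13.7 FPKM in AbfA and 0.32 and 8.32 FPKM in BglC.

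A row of 4 lower neighbours on chromosome III comprised AN8772, AN11121, AN11120 and AN11119. AN8772 averaged 29.1 ± 2.57 FPKM in 1542 and 98.7 ± 15.6 FPKM in the parental strain, and the differences along the row were −1.72, −3.72, −1.27 and −0.43. The row on chromosome II that ended with nimE, the mitotic cyclin B, and the one on chromosome VIII around hhtA, a histone H3, had small differences, between −0.82 and −0.32. nimE had 104, 110 and 108 FPKM in 1542, against 198, 135 and 177 FPKM in the parental strain (−0.64 ± 0.12, adjusted p = 0.00087). After scaling, nimE and AN0734 kept their calls in these rows, while hhtA (adjusted p = 0.13), AN3651 (0.084), AN3650 (0.075), AN3649 (0.11), AN0735 (0.065) and AN0732 (0.06) lost them. hhtA also lost its call without 1542 replicate 1 or 3 or parental replicate 1 or 3 (0.093 to 0.11). The number of rows was 5 in all, and 1 when 1542 replicate 1, 1542 replicate 3 or parental replicate 1 was left out. It was 2 when parental replicate 3 was left out, and 3 when 1542 replicate 2 was.

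Housekeeping lists were close to the median of all genes or slightly below it. All 15 proteasome genes had a negative difference, against 61.0% of all genes, with a median of −0.31. Of them 5 were called lower (pre8, pup2, pre2, rpn8 and rpt3), against 12.7% of all genes. pre8, an alpha-ring subunit, had 191, 206 and 193 FPKM in 1542, against 281, 247 and 275 FPKM in the parental strain (−0.44 ± 0.11, adjusted p = 0.01). The summed level was 2880 to 3000 FPKM in 1542 and 3370 to 3980 FPKM in the parental strain, without overlap. After scaling between libraries the 15 differences were still negative, with a median of −0.21 and 4 calls. The count of calls was 1 without 1542 replicate 1, 1542 replicate 2, parental replicate 1 or parental replicate 3 (each alone), and 3 without 1542 replicate 3. Of 23 ribosome biogenesis genes 22 had a negative difference (median −0.21), against 61.0% of all genes. Of the 23, 1 was called lower, which is below the 12.7% of all genes. It was rrp3, a call that ended after scaling (adjusted p = 0.068) and without 1542 replicate 3 (0.056) or parental replicate 3 (0.11). Of 19 amino acid synthesis genes, his3, argB and trpE were called lower and ilv3 higher, against 12.7% and 5.42% of all genes. Each difference was under 1, and each call was lost without 1542 replicate 1, 1542 replicate 3 or parental replicate 3, among others (adjusted p = 0.063 to 0.26). rps0, a small-subunit ribosomal protein, was the 1 call among 12 genes of translation (0.56 ± 0.17, adjusted p = 0.028), lost without 1542 replicate 1 or 2 or parental replicate 1 or 2 (0.064 to 0.099). It was called higher, as were 5.42% of all genes. Of 17 ergosterol genes, erg6 and erg12 were called lower as deposited, against 12.7% of all genes. After scaling 0 ergosterol genes were lower and 2 other members were called higher. With FPKM as deposited and all libraries, no member was called in the lists of nitrate use, ammonium assimilation, siderophores and iron, septins and polarity, calcium and stress signalling, autophagy or oxidative stress defence. Of all genes, 18.2% were called. After scaling, 2 members of septins and polarity, 1 of autophagy and 1 of siderophores and iron were called higher.

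Cell wall synthesis gave 2 higher and 1 lower call among 13 genes, against 5.42% higher and 12.7% lower among all genes. ags2 is described above, chsD differed by 0.62 ± 0.20 (adjusted p = 0.039) and chsA by −0.72 ± 0.25 (adjusted p = 0.049), both chitin synthases. The calls of chsD and chsA ended without 5 and 6 of the 6 libraries in turn (adjusted p = 0.061 to 0.16 for chsD without any library other than parental replicate 2, and 0.06 to 0.19 for chsA). ags1, the other alpha-1,3-glucan synthase, had 69.1, 73.9 and 49.8 FPKM in 1542, against 87.4, 97.8 and 107 FPKM in the parental strain, and was not called (−0.61, adjusted p = 0.17). Among the host's own xylanases, cellulases and mannanases, 8 of 10 passed the filter on low values. Of the 8, 1 was called higher and 2 lower, against 5.42% and 12.7% of all genes. AN4102 was higher, with 30.5, 33.4 and 38.0 FPKM in 1542, against 17.5, 17.1 and 18.2 FPKM in the parental strain, and AN1818 and AN9365 were lower, with differences of −1.35 and −1.19. xlnR, the activator of xylanase genes, differed by 0.16 (adjusted p = 0.36).

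The difference between the strains was not constant over time. At 2 h, in libraries other than those at 8 h, 3517 genes (38.2%) differed, 2033 higher (22.1%) and 1484 lower (16.1%) in 1542. Of the genes called higher, 241 were higher at both times, 48.3% of the list at 8 h and 11.9% of that at 2 h. Of those called lower, 263 were lower at both times, 22.5% of the list at 8 h and 17.7% of that at 2 h, and 201 genes were called in opposite directions. The change of the difference between the times was itself called for 1878 genes (20.4%), with 519 (5.64%) more positive and 1359 (14.8%) more negative at 8 h, which became 966 and 960 after median-of-ratios scaling and 921 and 873 with voom on the recovered reads. It was called for 1228 genes without parental replicate 2 of the 2 h libraries. The largest of the named genes were ivoB, whose difference was −1.32 at 2 h and 5.65 at 8 h (a change of 6.96), AN1941 (5.78) and AN6401 (5.63), and, in the other direction, AN1567 (−5.35) and AN2573 (−4.86). All 12 of the largest decreases had a called change, although that of aspf13 ended without any of the 12 libraries other than parental replicate 2 at 8 h (adjusted p = 0.053 to 0.12), and that of AN9273 without 1542 replicate 1 or 2 at 2 h, 1542 replicate 3 at 8 h, or parental replicate 3 at either time (0.053 to 0.077). Scaling by the median of ratios also ended the change of aspf13 (0.073), and voom on the recovered reads ended those of aspf13 (0.16), AN9273 (0.083), AN1567 (0.058), AN7087 (0.071) and AN0492 (0.32). A pseudocount of 0.1 ended those of aspf13 (0.055) and AN0492 (0.099), and no filter (0.059) or the replicate block (0.057) that of aspf13. Of the 12 largest increases, the mannanase gene among them, 6 had a called change. The genes high at both times, AN8308, AN0528, AN8366, AN0531 and AN7898, had changes of −2.88, −0.66, −2.0, 0.12 and −1.03, none of them called (adjusted p = 0.063 to 0.93).

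**Figure D5:**
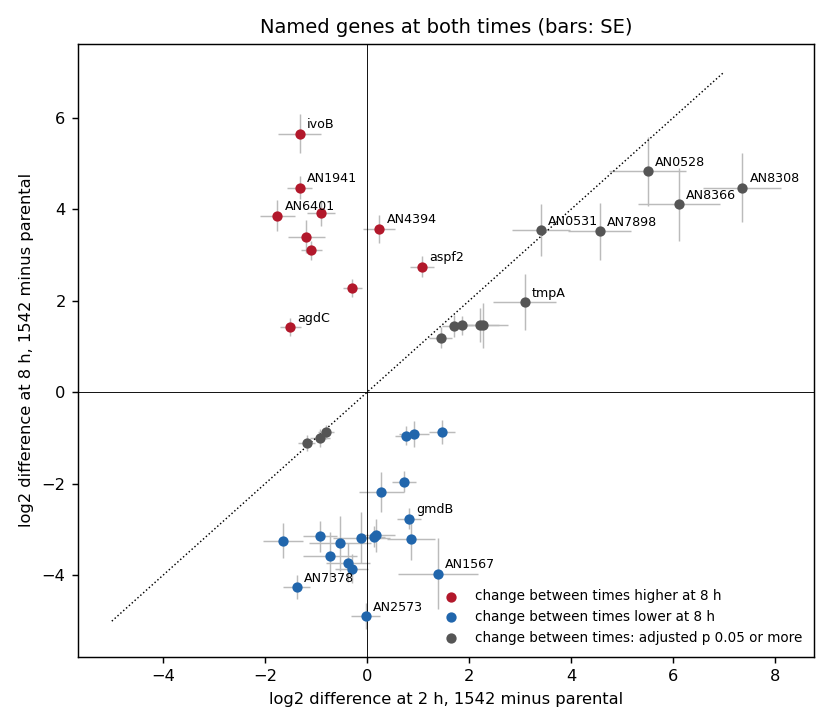
Log2 difference between 1542 and the parental strain at 8 h against that at 2 h for the named host genes called at 8 h and chosen by size, with SE bars, the line of equal difference dotted and the colour giving whether the change between the times was called. ivoB, AN1941 and AN6401 lie below 0 at 2 h and above 3 at 8 h, AN8308 to AN7898 are high at both times, and the differences of the largest decreases at 2 h lie on both sides of 0, AN7378 at −1.38 and AN1567 at 1.39.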

How the data were processed

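The authors deposited FPKM (fragments scaled for gene length and library total) per gene and library. RNA with an integrity number of at least 8 was made into libraries with a stranded kit, per the labels' protocols. DESeq2, HTSeq 0.6.0, SAMtools 0.1.18, FastQC and bcl2fastq 1.8.4 were used, per the submitters' processing notes, which give no roles here. The sources used here do not give the aligner, genome build, annotation or use of strand, so overlapping or near-identical genes may share reads. FPKM were whole multiples of a step per gene and library, which gave whole reads for 10631 of 10631 genes (100.0%, tolerance 0.0001).

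From these, log2(FPKM + 1) of all 24 libraries was fitted with 8 group means in limma 3.58.1 (R 4.3.3; empirical Bayes with trend; two-sided; Benjamini-Hochberg over 9201 genes). Fold changes of low genes are understated on this scale. P-values measure the spread between the triplicates. Checked on simulated data, 77% of 2-fold and 98% of 4-fold changes were recovered. The changed genes were drawn from those with a mean log2(FPKM + 1) above 3, with normal noise on that scale. The check therefore does not cover low genes. Symbols came from RefSeq (ASM1142v1; 9938 IDs matched, 778 with a symbol), other list members by ID from textbook knowledge. Named are the 12 largest called differences in each direction with a mean of at least 5 FPKM and no overlap, the 10 largest with a symbol, called members of lists and rows, and the 6 largest also called against both other strains or between times. Comparison, lists and genes were chosen with earlier results of these data known. A list needed 3 tested members, and 4 lists had fewer. Alternatives were a pseudocount of 0.1, no filter, scaling by median of ratios, a fit on the libraries compared, a replicate block, voom on the recovered reads, and leaving out each library.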

Additional observations from a re-analysis of the deposited data

Results flagged for a closer look

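The difference between 1542 and the parental strain changed between 2 h and 8 h, by limma's test of the interaction, for 50 named genes, of which the 29 chosen by size are given here. The change was in the direction of 1542 at 8 h for ivoB (6.96), AN1941 (5.78), AN6401 (5.63), AN1604 (4.83), AN0500 (4.59), ags2 (4.19), AN4394 (3.32), agdC (2.92), sclB (2.57) and aspf2 (1.66). It was in the direction of the parental strain for AN1567 (−5.35), AN2573 (−4.86), AN11468 (−4.07), gmdB (−3.58), AN3333 (−3.55), AN11121 (−3.35), AN1813 (−3.30), AN5459 (−3.29), AN7087 (−3.07), AN7378 (−2.88), AN0492 (−2.86), AN9273 (−2.77), aah1 (−2.67), tpcA (−2.46), gliT (−2.35), AN6426 (−2.22), pmeA (−1.82), aspf34 (−1.71) and aspf13 (−1.59). The cause was not tested.

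Given next are the 6 largest differences in each direction among genes whose level at 8 h in 1542 differed from that in the parental strain, in AbfA and in BglC; other genes, such as AN7897, AN11584 and AN7899, differed from both strains as well. The log2 differences were 9.77 from AbfA and 9.80 from BglC for the mannanase gene, 3.93 and 6.48 for AN0528, 3.80 and 6.15 for AN8308, 3.24 and 5.64 for AN8366, 3.28 and 5.65 for AN0531, and 3.48 and 5.67 for AN7898, always from AbfA and then from BglC. In the same order they were −2.12 and −2.11 for AN7378, −1.13 and −3.05 for AN3333, −1.46 and −1.45 for AN11121, −1.67 and −1.88 for aspf13, −2.20 and −2.63 for AN6426, and −1.59 and −1.81 for AN1813.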

How the results depend on the processing

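Of the 95 named genes called against the parental strain, 59 were called under every alternative, and no named value changed sign where called; 2906 values stayed on their side of the threshold, 275 lost and 17 gained a call. Calls lost were mostly of differences under 2-fold. The number of genes called higher was 752 after median-of-ratios scaling and 757 with voom on the recovered reads (1585 calls in all), and the cause was not tested beyond the shift of the median given above. The comparison with AbfA gave 981 calls when only the libraries compared were fitted, and 3 rows of neighbours were found with the replicate block and 3 after scaling. Leaving out 1 library gave 957 to 1783 calls, 257 to 516 higher and 661 to 1267 lower, 391 to 551 at least 2-fold, 240 to 637 against AbfA, 885 to 1117 against BglC, 1228 to 2017 for the change between times, and 1 to 6 rows. Replicate numbers did not pair the libraries: deviations of same-numbered libraries correlated at 0.186, −0.122 and −0.115, and the block gave 1568 calls. Under other numbers, 1542 replicate 2 correlated with parental replicate 3 at 0.191, and 1542 replicate 3 with parental replicate 2 at 0.171. The block covers equal numbers only, so a pairing under other numbers was not tested. With 3 libraries a group, calls near the threshold rest on single libraries, and genes near 1 FPKM rest on few reads.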
